A study of Homo sapiens with 24 samples.

Results

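POU5F1, NANOG, SOX2, LIN28A, LIN28B, DPPA4, L1TD1, SALL4, TDGF1 and ZFP42 are 10 genes known for high expression in pluripotent stem cells. They were read in cultures of human embryonic stem cells at the end of cardiac differentiation, by matching their Ensembl identifiers in a table of read counts of 62757 genes. All 10 were found, and 9 of them passed the filter on low counts that 17724 genes passed. NANOG did not pass. The 24 libraries came from the HES3 line, an established human embryonic stem cell line, carrying the NKX2-5 GFP and NR2F2 mCherry reporters in every group, the controls included. The cells were grown as embryoid bodies under a Wnt-modulating cardiac protocol for at most 14 days. In the atrial condition (AM) retinoic acid was given at day 4, and in the ventricular condition (VM) it was not. In each condition, CRISPR-Cas9 knockouts of LHX2, ZNF503 and ZNF711 were set beside cells targeted at TRAC, the T cell receptor alpha constant gene, as the control. Each of the 8 groups (AM TRAC, AM LHX2, AM ZNF503, AM ZNF711, VM TRAC, VM LHX2, VM ZNF503 and VM ZNF711) held 3 numbered replicates. The labels do not say whether replicates were separate differentiations or how many clones a knockout comprised, so the p-values measure the spread between these libraries, which may be technical.

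POU5F1 (OCT4), SOX2 and NANOG are transcription factors that bind each other's genes and many shared enhancers, and together they maintain the pluripotent state. ZFP42 (REX1) and SALL4 are zinc finger proteins of the same network, DPPA4 is a chromatin protein of early embryonic cells, and L1TD1 is an RNA-binding protein that associates with LIN28. LIN28A and LIN28B bind the precursors of let-7 microRNAs and block their maturation. TDGF1 (CRIPTO) is a membrane-anchored co-receptor for the growth factor Nodal. During differentiation these genes are turned down at different speeds. SOX2, SALL4, LIN28A and LIN28B are also known in somatic and endodermal progenitors, so their transcripts alone do not mark a pluripotent cell.

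Library totals ran from 2899786 to 7438010 counts, with a median of 5113566.5. Levels are given as CPM, the counts per gene after scaling every library to the same total, on library sizes scaled by the trimmed mean of M values. 3 counts in a library, taken here as the floor below which a level is not read, correspond to 0.447 to 0.963 CPM. The targeted transcripts differed in how they sat with the labels. LHX2 was at 0.517 to 2.09 CPM in the AM LHX2 libraries and 0.542 to 2.37 in AM TRAC, and at 0.425 to 2.80 in VM LHX2 and 1.85 to 4.02 in VM TRAC. ZNF711 was at 31.2 to 55.8 CPM in AM ZNF711 against 47.4 to 60.3 in AM TRAC, and in VM it lay below TRAC without overlap, at 25.9 to 33.9 against 34.6 to 48.0. ZNF503 RNA lay above TRAC without overlap in the libraries labelled ZNF503, at 255 to 367 CPM against 103 to 123 in AM and 19.1 to 45.3 against 8.82 to 16.2 in VM. A small Cas9 edit need not lower a transcript, so no direction here rests on these levels. The 12 defining heart muscle genes summed to 12925 to 43667 CPM over the 24 libraries, and the brachyury gene TBXT was at 0 in all 24. TTN and MYH6 weigh heavily in that heart muscle sum.

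The VM libraries were not uniform. Replicate 3 of VM TRAC, VM LHX2 and VM ZNF503 and all 3 VM ZNF711 libraries held more transcripts of endoderm and liver genes than the other 6 VM libraries. Alpha-fetoprotein (AFP) was at 5242 to 15346 CPM in these 6 libraries and at 906 to 2019 CPM in the other 6, and the ryanodine receptor RYR2 of heart muscle was at 335 to 643 against 1219 to 1346 CPM. In bulk RNA, fewer cells of a type and less RNA per cell cannot be told apart. Results that rest on these libraries are given with and without them, and the part of endoderm cells in those results was not tested.

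Per kilobase of exon (GENCODE 29 exon union, GRCh38), LIN28A, SALL4 and LIN28B had the highest medians, and POU5F1, TDGF1 and NANOG the lowest. Over the 24 libraries the median level was 24.2 CPM per kilobase for LIN28A, 10.9 for SALL4 and 9.68 for LIN28B. ZFP42 followed at 8.54, DPPA4 at 4.46 and L1TD1 at 3.86 CPM per kilobase. SOX2, POU5F1 and TDGF1 were lower, at 1.85, 1.44 and 0.718 CPM per kilobase. NANOG was at a median of 0. The 24-library ranges of neighbours in this order overlapped throughout, and the order of medians differed between conditions, with TDGF1 at rank 9 of 10 in AM and rank 7 in VM.

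**Figure D1:**
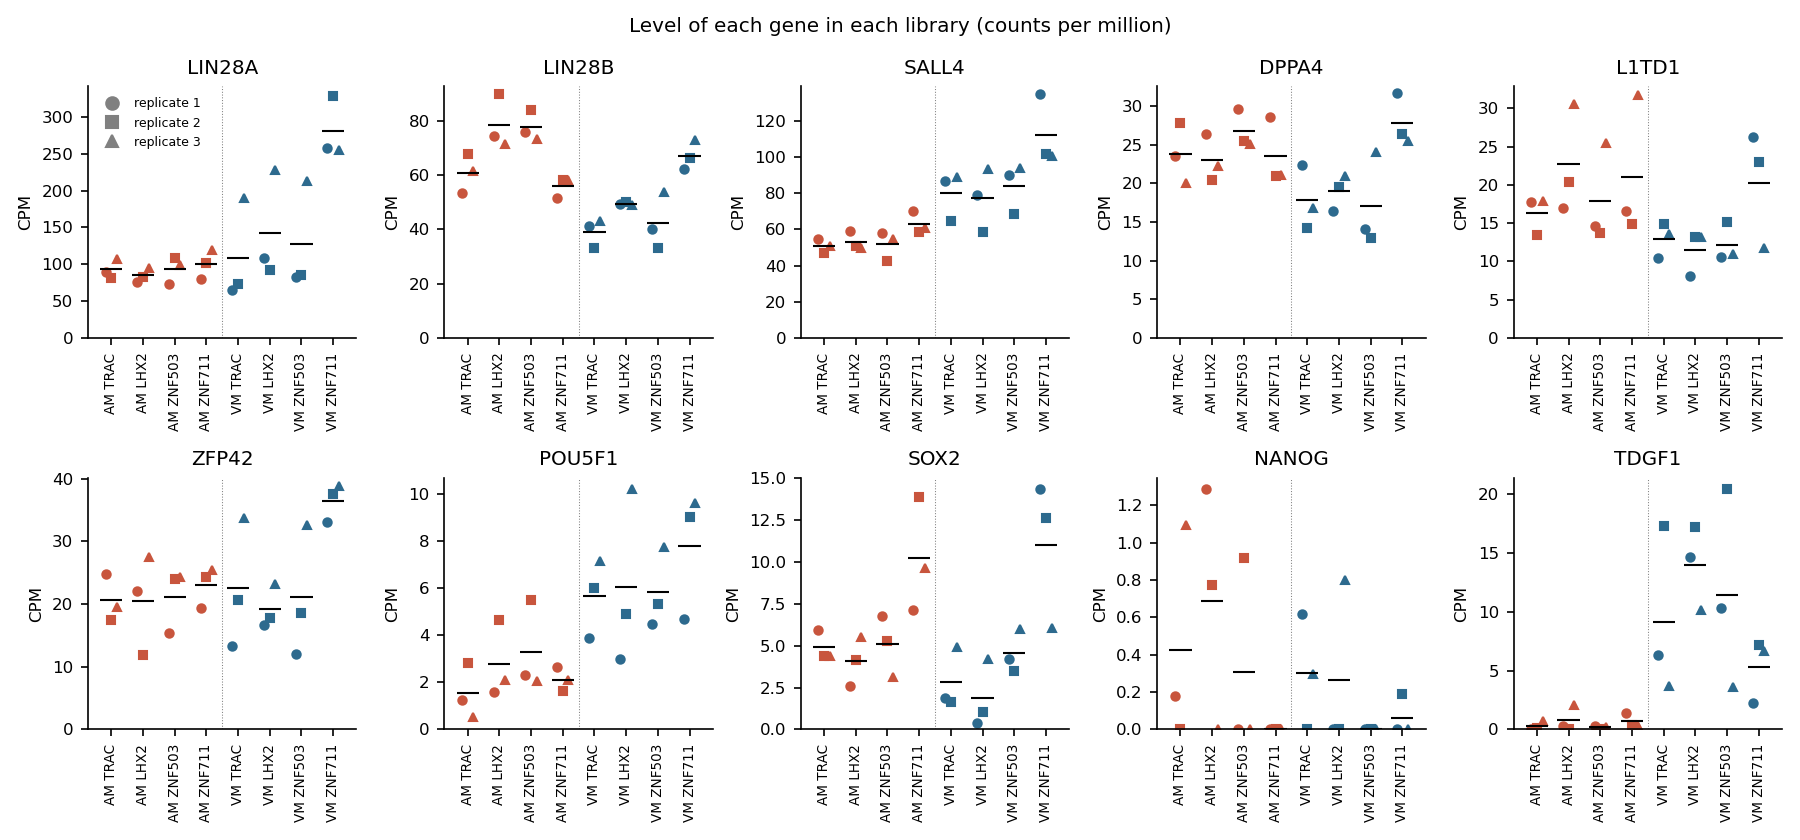
Level of each of the 10 genes in each of the 24 libraries, in CPM on a linear axis that starts at 0. Red points are AM and blue points VM libraries, the marker shape gives the replicate number, and the black bar is the group mean of 3. TDGF1 is near 0 in every AM group, and LIN28A splits the VM libraries, with replicate 3 and VM ZNF711 at 190 to 329 CPM.

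The first question is how the 10 genes differed between the atrial and the ventricular condition. TDGF1, POU5F1, SALL4 and LIN28A were lower in AM, LIN28B and L1TD1 were higher, and SOX2, DPPA4 and ZFP42 did not pass the test. The difference was taken as the mean of the 4 within-target differences and tested with edgeR's quasi-likelihood test, adjusted over all 17724 genes by the Benjamini-Hochberg method. Every adjusted p below comes from this test unless another tool is named, and a gene is called below 0.05. The condition changed much of the transcriptome: 34.5% of all genes tested were called, 17.6% lower and 16.8% higher in AM. Against that, 4 of the 9 tested members were lower and 2 higher. With the replicate number as a block, 7 of 9 were called beside 41.7% of all genes (20.9% lower, 20.8% higher), the added one being DPPA4. Without replicate 3, 6 of 9 were called beside 25.0% of genes, without ZNF711 6 of 9 beside 25.9%, and without both 5 of 9 beside 22.1%. The fits without ZNF711, here and below, were added after the data were seen, so their p-values are descriptive. Within single targets 4, 2, 3 and 4 members were called for TRAC, LHX2, ZNF503 and ZNF711, where 11.3%, 8.56%, 8.86% and 13.2% of all genes were. With the block, 4 were called in LHX2 and 4 in ZNF503, where 15.7% and 14.9% of all genes were. The members' median log2 difference was -0.18, and that of all genes tested was -0.01.

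POU5F1 (chr6:31164337-31180731, minus strand) was at a few CPM throughout. In AM its libraries read 1.27, 2.81 and 0.547 CPM for TRAC, 1.61, 4.65 and 2.09 for LHX2, 2.31, 5.49 and 2.04 for ZNF503, and 2.66, 1.61 and 2.08 for ZNF711. In VM they read 3.90, 5.98 and 7.15 for TRAC, 3.01, 4.89 and 10.2 for LHX2, 4.46, 5.31 and 7.73 for ZNF503, and 4.70, 9.03 and 9.61 for ZNF711. The 2 conditions did not overlap for TRAC and for ZNF711, and overlapped for the other targets. The log2 difference, AM minus VM, was -1.41 ± 0.28 (SE, adjusted p = 0.000281), and AM was lower in 11 of 12 same-numbered pairs. Within targets it was called in TRAC (-1.85, adjusted p = 0.0354) and ZNF711 (-1.87, 0.0288), but not in LHX2 (-1.10, 0.270) or ZNF503 (-0.83, 0.444). The size depended on replicate 3: without it in all groups, the difference was -0.90 (adjusted p = 0.0509), and without ZNF711 and replicate 3 it was -0.63 (0.282). The call within TRAC was lost in 7 of 9 fits with a library or replicate number left out, and that within ZNF711 in 8 of 9.

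POU5F1 reads cannot be assigned with certainty at these counts. The gene summed to 526 counts over 24 libraries, and 5 of its 7 copies in the table had counts, 336 in all. POU5F1B, the largest of them, had 87 counts in AM and 123 in VM. TCF19, on the opposite strand, shares 248 exon bases with POU5F1, and the strand setting of the counting is not given in the sources used here. TCF19 was at a median of 7.76 CPM in AM and 6.11 in VM, the direction opposite to that of POU5F1.

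NANOG (chr12:7787794-7799141, plus strand) was close to undetected. It had 29 counts in all, 0 in 15 of 24 libraries and at most 6 in one, while 3 of its 11 copies held 228 counts. These numbers give no direction between groups, and at this depth a level under the 3-count floor could not be seen.

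SOX2 (chr3:181711924-181714436, plus strand) was highest in the ZNF711 groups. In AM it was at 5.97, 4.37 and 4.37 CPM for TRAC, 2.57, 4.14 and 5.51 for LHX2, 6.75, 5.31 and 3.16 for ZNF503, and 7.16, 13.9 and 9.63 for ZNF711. In VM it was at 1.85, 1.65 and 4.92 for TRAC, 0.376, 1.06 and 4.20 for LHX2, 4.22, 3.47 and 6.02 for ZNF503, and 14.3, 12.6 and 6.06 for ZNF711. AM and VM overlapped within every target, and the mean difference of 0.49 ± 0.28 did not pass (adjusted p = 0.185). Without replicate 3 in all groups it was 1.02 (0.00779), without VM LHX2 replicate 3 alone 0.84 (0.0148), and without ZNF711 and replicate 3 it was 1.47 (0.00614), all higher in AM. Replicate 3 held the highest SOX2 value of VM TRAC, VM LHX2 and VM ZNF503, and the lowest of VM ZNF711. Leaving it out lowers the VM means of TRAC, LHX2 and ZNF503, so these larger differences follow in part from that choice. The last fit was added after the data were seen, and it leaves out the VM ZNF711 libraries, where SOX2 was highest in VM.

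SALL4 (chr20:51782331-51802520, minus strand) had a higher group mean in VM for every target. In AM it was at 54.8, 47.1 and 51.0 CPM for TRAC, 59.4, 50.7 and 49.8 for LHX2, 58.0, 42.3 and 55.0 for ZNF503, and 70.0, 58.8 and 60.9 for ZNF711. In VM it was at 87.0, 64.8 and 89.1 for TRAC, 79.3, 58.9 and 93.7 for LHX2, 90.1, 68.4 and 94.1 for ZNF503, and 135, 102 and 101 for ZNF711. VM was higher in 12 of 12 pairs. The difference was -0.68 ± 0.09 (adjusted p = 1.36e-06). It was called in TRAC (-0.66, 0.0162), ZNF503 (-0.70, 0.0122) and ZNF711 (-0.83, 0.00273). In LHX2, where VM replicate 2 at 58.9 CPM lay within the AM range, it was -0.54 (0.0640), and passed with the replicate block (0.00442). The mean difference was called with any single library or replicate number left out, at -0.73 to -0.61. With 3 libraries a group, the calls within TRAC and within ZNF503 were each lost in 6 of 9 such fits.

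ZFP42 (chr4:187995771-188005050, plus strand) did not pass the test. It ranged from 11.9 to 27.6 CPM in AM, with a median of 23.1, and from 11.97 to 38.9 CPM in VM, with a median of 21.9. AM was higher in 5 of 12 pairs, and the difference was -0.18 ± 0.17 (adjusted p = 0.453). Its highest values were in VM ZNF711 (33.1, 37.6 and 38.9 CPM) and in replicate 3 of VM TRAC and VM ZNF503 (33.7 and 32.7), libraries in the set with high AFP. Without ZNF711 and replicate 3 the sign turned, at 0.21 (0.535).

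**Figure D2:**
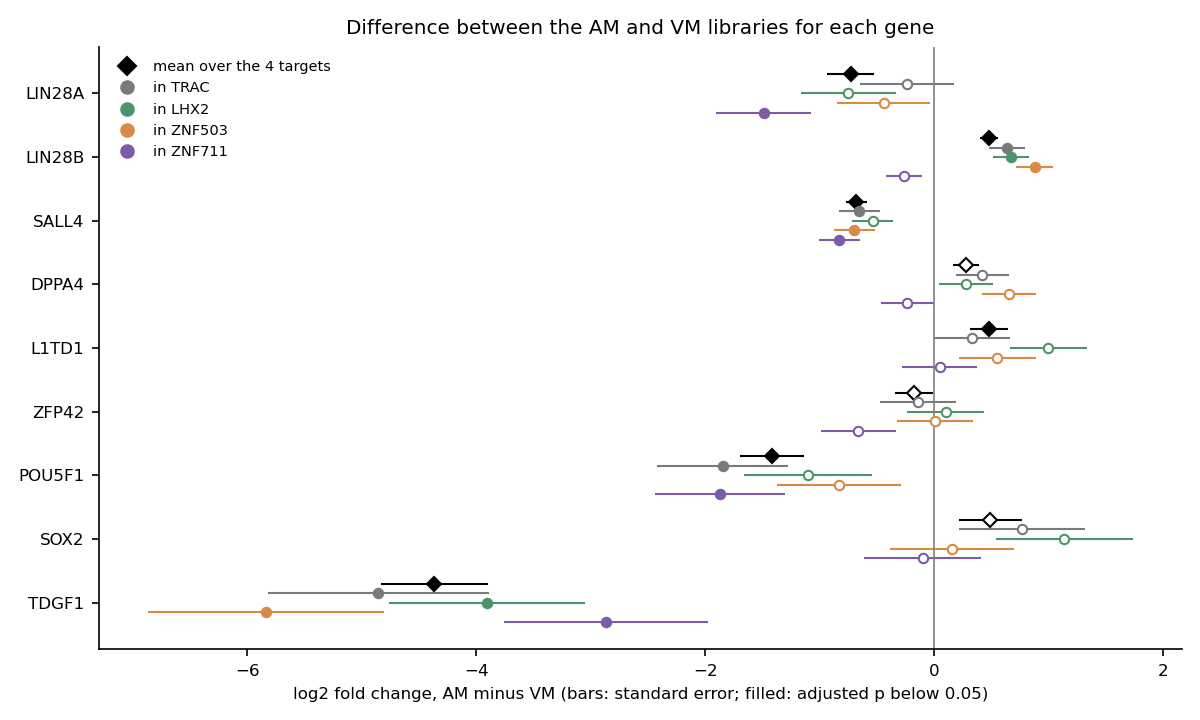
Log2 fold change, AM minus VM, of the 9 genes that passed the filter on low counts. Diamonds are the mean over the 4 targets and circles the 4 targets, bars are standard errors, and filled markers have an adjusted p below 0.05. TDGF1 is filled for all 4 targets, and LIN28B lies above 0 in TRAC, LHX2 and ZNF503 and at -0.26 in ZNF711.

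The mean difference between the conditions was below 0 for LIN28A and above 0 for LIN28B, but within no single target were both called. With no filter on low counts both were called in LHX2, but LIN28A was at -0.76 (adjusted p = 0.000914) against -0.75 with the filter (0.329). The size hardly moved and only the p-value changed. Neither the fit with the replicate block nor another tool, DESeq2, called LIN28A in LHX2. Both act on the let-7 family, whose members share 1 seed. The mature forms hosted in 3 long RNAs of the table are shown because their hosts are among the measured genes. Capitals mark the seed, bases 2 to 8 from the 5′ end (RefSeq, GRCh38.p14).
let-7a-5p: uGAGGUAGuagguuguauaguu
let-7b-5p: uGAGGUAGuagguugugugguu
let-7c-5p: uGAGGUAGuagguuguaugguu
One let-7a copy lies at chr11:122146568-122146589 (minus strand) in MIR100HG and let-7c at chr21:16539838-16539859 (plus strand) in MIR99AHG, while let-7b lies at chr22:46113691-46113712 (plus strand) in MIRLET7BHG. Mature microRNAs were not measured in these libraries.

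LIN28A (chr1:26410778-26429722, plus strand) was in AM at 89.1, 81.8 and 108 CPM for TRAC, 76.4, 83.0 and 94.9 for LHX2, 73.8, 108 and 98.8 for ZNF503, and 79.4, 101 and 119 for ZNF711. In VM it was at 64.4, 72.8 and 190 CPM for TRAC, 109, 92.0 and 228 for LHX2, 82.8, 85.4 and 213 for ZNF503, and 257, 329 and 255 for ZNF711. The 12 AM libraries were close together, and the VM libraries split: replicates 1 and 2 of 3 targets lay at 64.4 to 109 CPM, within or near the AM range, and the other 6 at 190 to 329. The difference was -0.73 ± 0.21 (adjusted p = 0.00951) and was called within ZNF711 (-1.49, 0.0233), but not within TRAC (-0.24, 0.792), LHX2 (-0.75, 0.329) or ZNF503 (-0.44, 0.646). It rested on the split VM libraries. Without ZNF711 it was -0.48 (0.206), and without ZNF711 and replicate 3 it was 0.03 (0.877). The call within ZNF711 was lost in 6 of 9 fits with a library or replicate number left out. For the mean, leaving out replicate 3 alone gave -0.40 (0.00365), and leaving out replicate 1 gave -0.81 (0.0542).

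LIN28B (chr6:104936616-105083332, plus strand) was in AM at 53.5, 67.6 and 61.6 CPM for TRAC, 74.5, 89.97 and 71.3 for LHX2, 75.8, 83.8 and 73.4 for ZNF503, and 51.5, 58.2 and 58.0 for ZNF711. In VM it was at 41.2, 33.0 and 43.2 CPM for TRAC, 49.3, 49.9 and 48.8 for LHX2, 40.1, 33.1 and 53.7 for ZNF503, and 62.1, 66.2 and 72.9 for ZNF711. All AM libraries lay above all VM libraries within TRAC, LHX2 and ZNF503, and all lay below within ZNF711. The mean difference was 0.48 ± 0.08 (adjusted p = 3.40e-05). Within targets it was 0.64 in TRAC (0.00926), 0.67 in LHX2 (0.00736), 0.88 in ZNF503 (0.000541) and -0.26 in ZNF711 (0.301). The mean was called with any single library or replicate number left out, at 0.35 to 0.58, while the calls within TRAC and within LHX2 were each lost in 3 of 9 such fits and that within ZNF503 in 1 of 9. LIN28B-AS1, which shares 67 exon bases on the opposite strand, had 88 counts in AM and 76 in VM, against 4099 and 2927 of LIN28B.

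DPPA4 (chr3:109326141-109337572, minus strand) was at 20.0 to 29.7 CPM in AM, with a median of 24.3, and at 12.9 to 31.7 in VM, with a median of 20.3. Its difference of 0.28 ± 0.12 did not pass (adjusted p = 0.0674), nor did it with relative log expression scaling, with no filter or with DESeq2. It passed with the replicate block (0.0401), with scaling to library size alone (0.36, 0.0240), without replicate 3 in all groups (0.42, 0.0303), without ZNF711 (0.45, 0.0232) and without both (0.64, 0.00737). It also passed without VM ZNF503 replicate 3 (0.37, 0.0106), without VM TRAC replicate 1 (0.33, 0.0317), without VM ZNF711 replicate 1 (0.31, 0.0448) and without AM TRAC replicate 3 (0.31, 0.0467). These libraries held the highest DPPA4 values of their VM groups and the lowest of AM TRAC. The larger differences therefore follow in part from leaving them out. Like LIN28B, it was higher in AM in 3 of 3 pairs for TRAC, LHX2 and ZNF503 and lower in 3 of 3 for ZNF711. In ZNF503 the AM libraries, at 29.7, 25.4 and 25.1 CPM, lay above those of VM, at 14.1, 12.9 and 24.1. This within-target difference of 0.65 ± 0.23 did not pass (adjusted p = 0.0870). It passed with the replicate block (0.65, 0.0420), without VM ZNF503 replicate 3 (0.99, 0.0108) and without replicate 3 in all groups (1.04, 0.0229).

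L1TD1 (chr1:62194831-62212328, plus strand) was at 13.4 to 31.7 CPM in AM, with a median of 17.4, and at 8.08 to 26.2 in VM, with a median of 13.2. AM was higher in 8 of 12 pairs and the difference was 0.48 ± 0.17 (adjusted p = 0.0265). The AM replicate 3 libraries read 17.9, 30.6, 25.4 and 31.7 CPM in TRAC, LHX2, ZNF503 and ZNF711. The call ended without replicate 3 of AM LHX2 (0.41, 0.0653), AM ZNF503 (0.40, 0.0678) or AM ZNF711 (0.38, 0.0736). Without replicate 1 in all groups the difference was 0.53 (0.0659), and without replicate 3 in all groups it was 0.15 (0.544). Without ZNF711 and replicate 3 it was 0.42 (0.1402). In LHX2 the AM libraries, at 17.0, 20.4 and 30.6 CPM, lay above those of VM, at 8.08, 13.2 and 13.2. There the difference of 0.99 ± 0.34 did not pass (adjusted p = 0.0678), and it passed with the replicate block (0.98, 0.0270), with no filter (0.0261) and with DESeq2 (0.0447).

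TDGF1 (chr3:46574534-46582463, plus strand; the RefSeq symbol is CRIPTO) showed the widest separation. In AM its raw counts were 0, 1 and 4 for TRAC, 1, 0 and 11 for LHX2, 2, 0 and 1 for ZNF503, and 7, 2 and 1 for ZNF711. In VM they were 31, 84 and 25 for TRAC, 78, 81 and 51 for LHX2, 44, 100 and 17 for ZNF503, and 9, 38 and 32 for ZNF711. In CPM, AM ran from 0 to 2.09 and VM from 2.23 to 20.4, so all 12 AM libraries lay below all 12 VM libraries, as they did for 1.56% of all genes tested. No other member separated all 24 libraries. Within single targets 4 members did not overlap in TRAC, 3 in LHX2, 4 in ZNF503 and 6 in ZNF711, where 26.1%, 23.9%, 23.5% and 32.9% of all genes did not. The log2 difference was -4.37 ± 0.47 (adjusted p = 1.13e-07), and it was called in TRAC (-4.86, 0.00145), LHX2 (-3.91, 0.00450), ZNF503 (-5.84, 0.000491) and ZNF711 (-2.86, 0.0347). The mean was called in all 27 fits with a library or replicate number left out, at -5.49 to -3.45, while the call within ZNF711 was lost in 7 of 9. The calls within TRAC and within LHX2 were lost without replicate 1 (0.0511 and 0.100) and without replicate 2 (0.0775 and 0.111).

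Since 9 of the 12 AM libraries held 3 TDGF1 counts or fewer, the ratio of summed counts is given with its exact 95% interval, which covers counting error only. VM over AM was 29.7 (12.4 to 92.9) for TRAC, 14.3 (7.99 to 28.0) for LHX2, 65.7 (22.1 to 322) for ZNF503 and 7.65 (3.95 to 16.6) for ZNF711. The intervals of ZNF503 and ZNF711 do not overlap, but the difference between these targets was not tested. Those of TRAC and ZNF711 do overlap, and the fitted difference between ZNF711 and TRAC in the condition effect, 1.99 ± 1.40, did not pass (adjusted p = 0.931). The VM libraries with high AFP were not the ones with high TDGF1: replicates 1 and 2 of VM TRAC, LHX2 and ZNF503 were at 6.36 to 20.4 CPM, replicate 3 at 3.65 to 10.2, and VM ZNF711 at 2.23 to 7.15. LRRC2, on the opposite strand, shares 110 exon bases with TDGF1 and was at a median of 1.58 CPM in AM and 7.42 in VM, the same direction. Reads of the shared bases cannot be told apart, and 3 of the 7 TDGF1 copies added 63 counts to the 620 of the gene.

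Promoter windows of 250 bases before the RefSeq start (GRCh38.p14) were found for 7 of the 10 members, in 9 windows. They were searched on both strands for AGGTCA, the half-site bound by retinoic acid receptors, for the POU octamer ATTTGCAT and for the FOXH1 letters TGTGGATT. TDGF1 is shown because it separated the conditions, by its first window, which lacks the half-site that its second window holds. SOX2 is shown as the member that was not called but holds the half-site, in capitals as it reads on the opposite strand. The printed windows lie on the plus strand at chr3:46574285-46574534 and chr3:181711675-181711924.
TDGF1: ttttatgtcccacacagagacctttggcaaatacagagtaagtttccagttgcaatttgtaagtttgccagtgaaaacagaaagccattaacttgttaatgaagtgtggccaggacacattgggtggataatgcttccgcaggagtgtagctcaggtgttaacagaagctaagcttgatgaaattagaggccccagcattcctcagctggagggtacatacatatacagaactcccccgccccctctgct
SOX2: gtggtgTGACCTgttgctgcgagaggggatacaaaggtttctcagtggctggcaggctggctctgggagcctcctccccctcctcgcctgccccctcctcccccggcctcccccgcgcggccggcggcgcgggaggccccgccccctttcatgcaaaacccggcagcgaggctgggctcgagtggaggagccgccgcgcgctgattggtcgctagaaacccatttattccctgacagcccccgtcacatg
AGGTCA was in 12.1% of 35116 promoter windows of the same length, ATTTGCAT in 1.63% and TGTGGATT in 0.709%. Among the 9 windows, AGGTCA was found once in SOX2 and once in the second TDGF1 window (chr3:46577538-46577787), and the other motifs in none. All 250 bases of that TDGF1 window lie in exons of GENCODE 29. A match of these letters is a description and not a bound site.

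**Figure D3:**
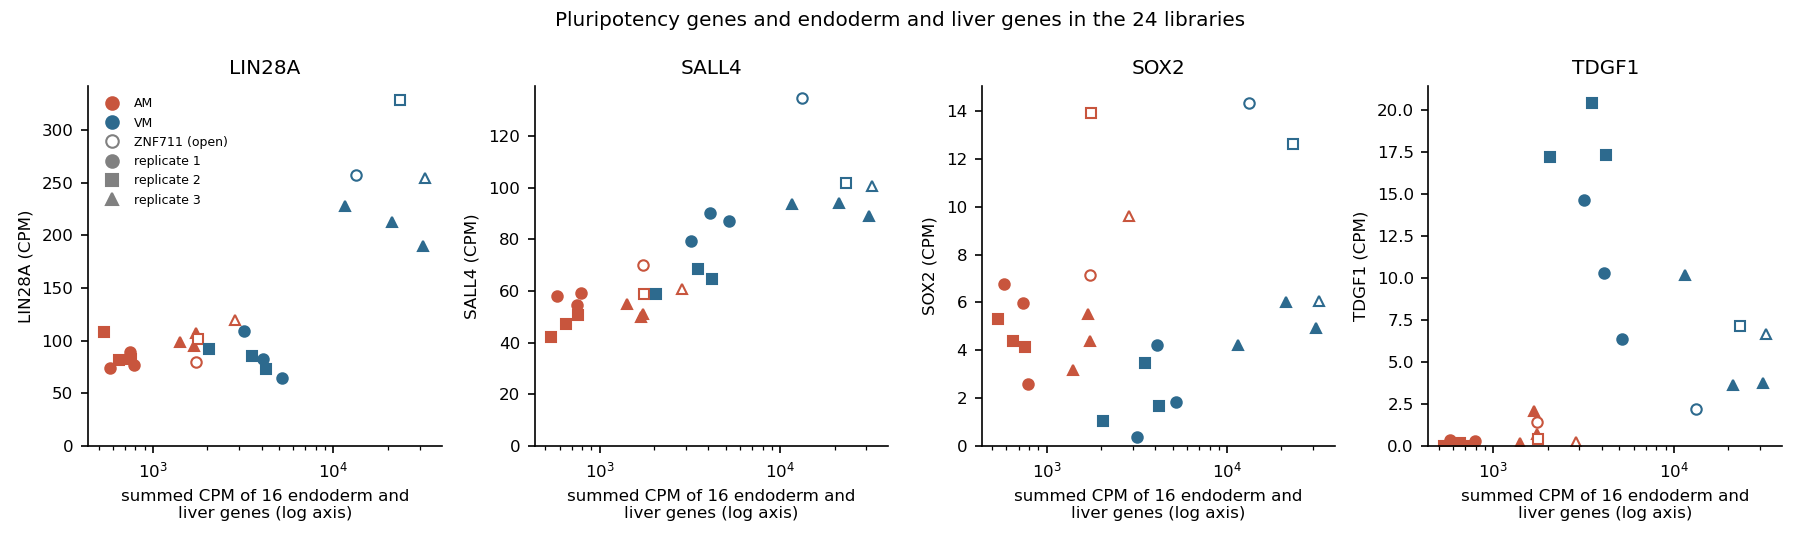
Level of LIN28A, SALL4, SOX2 and TDGF1 (CPM, linear axis from 0) against the summed CPM of 16 endoderm and liver genes (log axis) in the 24 libraries. Red is AM and blue VM, open markers are ZNF711, and the shape is the replicate number. The 6 VM libraries at 11557 summed CPM or more have LIN28A at 190 to 329 CPM and TDGF1 at 2.23 to 10.2 CPM, and the other 6 have LIN28A at 64.4 to 109 and TDGF1 at 6.36 to 20.4.

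The next question is whether knocking out LHX2, ZNF503 or ZNF711 moved these genes against TRAC. In the fit without the replicate block, none of the 9 tested members was called in any of the 6 comparisons, and few genes of any kind were. In AM no gene was called for LHX2, ZNF503 or ZNF711, with 1372, 309 and 618 genes at an unadjusted p under 0.05. In VM no gene was called for LHX2 or ZNF503, with 463 and 274 at an unadjusted p under 0.05, and 3 genes (0.0169%) for ZNF711, with 1666. DESeq2 called 33, 1 and 0 genes in AM and 1, 1 and 76 in VM, in the same order. With the replicate block, 201 genes (1.13%) and no member were called for LHX2 in AM, and 402 genes (2.27%) and 4 members for ZNF711 in VM. The 5 comparisons with 0 calls therefore do not show that the members were equal between the groups.

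In VM, ZNF711 libraries held higher values of most members than TRAC. The log2 differences, ZNF711 minus TRAC, were 1.36 ± 0.41 for LIN28A (adjusted p = 0.280), 0.77 ± 0.16 for LIN28B (0.0902), 1.93 ± 0.55 for SOX2 (0.220), 0.48 ± 0.18 for SALL4 (0.348), 0.64 ± 0.23 for DPPA4 (0.343), 0.69 ± 0.33 for ZFP42 (0.518) and 0.64 ± 0.33 for L1TD1 (0.562). POU5F1 was at 0.45 ± 0.52 and TDGF1 at -0.74 ± 0.71. All 3 ZNF711 libraries lay above all 3 TRAC libraries for SOX2, LIN28A, LIN28B, DPPA4 and SALL4, as they did for 5.41% of all genes. The members' median was 0.64, and that of all genes tested -0.01. Other lists had medians of similar size in this comparison, at 0.69 for 12 cell cycle genes, 0.76 for 16 endoderm and liver genes, 0.49 for 9 foregut epithelium genes and 0.48 for 24 further pluripotency genes, while that of 12 heart muscle genes was -0.92. The median of 8 neural genes was 0.36. These lists are not fully separate: the foregut list includes the member SOX2, and it shares CDH1 and EPCAM with the further pluripotency list.

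With the replicate number as a block, 4 of the 9 members were called in this comparison, all higher in ZNF711: LIN28B at 0.77 (adjusted p = 0.00660), LIN28A at 1.51 (0.0242), SALL4 at 0.49 (0.0310) and SOX2 at 2 (0.0340). In the same fit 5 of 12 cell cycle genes, 5 of 24 further pluripotency genes and 3 of 9 foregut epithelium genes were called, all higher. So were 2 of 8 neural genes, also higher. SOX2 is itself among the called foregut genes, so that count is not separate from the members. DESeq2 called LIN28B (0.00751). Replicate 3 of VM TRAC is among the VM libraries with high AFP. Its LIN28A, at 190 CPM, lay above the other VM TRAC libraries and below the 255 to 329 CPM of VM ZNF711. Without this replicate and without the block, LIN28A was at 2.01 (0.0147), SOX2 at 2.62 (0.0242) and LIN28B at 0.84 (0.0153), where 3.44% of all genes were called. These genes are all highest in that library among VM TRAC, and it was picked partly by its LIN28A. The larger differences without it therefore follow in part from that choice. The endoderm and liver list summed to 13272 to 32378 CPM in VM ZNF711, and to 5191, 4207 and 31224 in VM TRAC replicates 1, 2 and 3, while the heart muscle list summed to 12925 to 18575 against 17085 to 43667. TTN and MYH6 weigh heavily in the heart muscle sum, and AFP in the endoderm and liver sum. The part of the cells that express either list in the ZNF711 values was not tested.

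**Figure D4:**
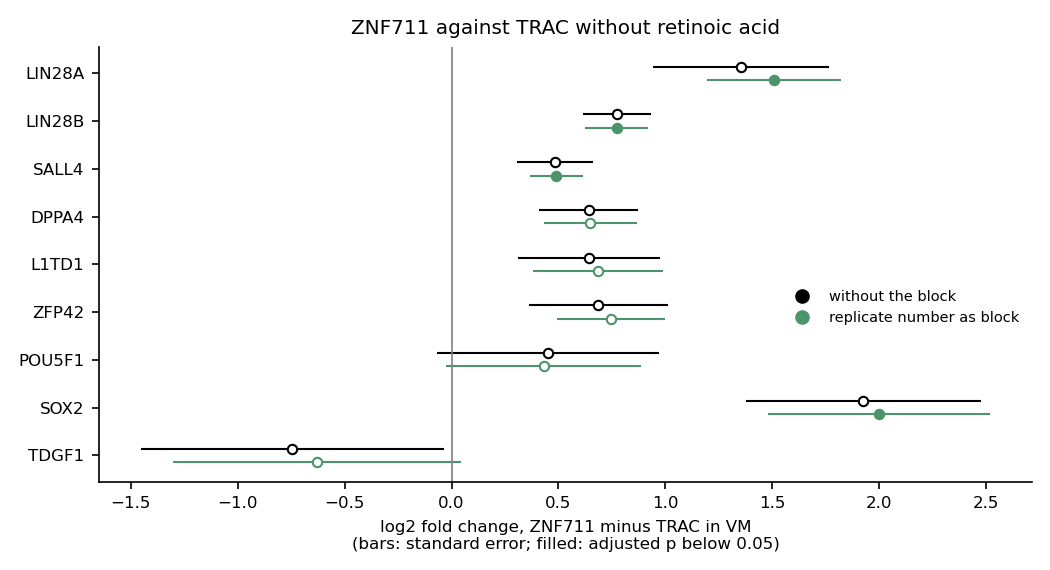
Log2 fold change, ZNF711 minus TRAC in VM, of the 9 genes that passed the filter on low counts, without (black) and with (green) the replicate number as a block. Bars are standard errors and filled markers have an adjusted p below 0.05. No gene is filled without the block, and LIN28A, LIN28B, SALL4 and SOX2 are filled with it.

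LIN28B values also lay above TRAC in other knockout groups, without passing the test. In AM its 3 LHX2 libraries and its 3 ZNF503 libraries lay above all TRAC libraries, by 0.37 ± 0.16 (adjusted p = 0.594) and 0.35 ± 0.16 (adjusted p = 1). In VM the LHX2 libraries lay above TRAC by 0.33 ± 0.16 (adjusted p = 1). In these 3 comparisons 9.28%, 4.54% and 2.71% of all genes lay above TRAC in the same way. In AM ZNF711 the values above TRAC without overlap were those of SOX2, at 1.06 ± 0.53, and SALL4, at 0.31 ± 0.18, as for 5.61% of genes (adjusted p = 1 for both). SOX2 was at its highest group means in ZNF711 in both conditions, at 10.2 ± 3.41 CPM in AM and 11 ± 4.37 in VM (SD, n = 3).

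Whether a knockout changed the difference between the conditions was tested as an interaction, and no member was called, where 0.00564% of all genes were for ZNF711 and none for LHX2 or ZNF503 (660, 346 and 1135 genes at an unadjusted p under 0.05 for LHX2, ZNF503 and ZNF711). LIN28B came closest, where the ZNF711 effect in AM minus that in VM was -0.90 ± 0.22 (adjusted p = 0.389, and 0.0843 with the replicate block). LIN28A was at -1.25 ± 0.58 (0.768). With no filter on low counts its size stayed at -1.25 while the adjusted p was 0.000397. Neither the replicate block (0.275) nor DESeq2 (0.654) called it. Without replicate 3 it was -2.04 (0.000596). Replicate 3 held the highest LIN28A value of VM TRAC, at 190 CPM, so this larger size follows in part from leaving it out. DPPA4 was at -0.66 ± 0.33 (0.797).

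Other genes of the pluripotency network, the Nodal pathway and the let-7 pathway place the members among their partners. These counts use the mean AM minus VM difference, in which 34.5% of all genes were called, 17.6% lower and 16.8% higher, and each list's count is to be read against that share. Of 35 further pluripotency genes, 24 were tested, 8 were lower and 2 higher in AM, with a median of -0.11 against -0.01 over all genes. The lower ones included MYCN (-1.30 ± 0.13, adjusted p = 1.08e-08), a growth-promoting factor that went from a median of 42.3 CPM in VM to 17.6 in AM. ZIC2, a primed-state factor, was at 0 to 1.09 CPM in AM and 0.821 to 22.3 in VM (-3.91, 4.72e-07). TRIM71, itself a let-7 target, had medians of 152 CPM in AM and 255 in VM (-0.78, 4.85e-06). The higher ones were KLF5 (1.13, 5.87e-06) and KLF4 (0.82, 0.00152), which are also epithelial factors. KLF17 and LINC-ROR were at 0 in all 24 libraries, and 9 of the 35 never exceeded 10 counts, DPPA3, DPPA5, FGF4, DNMT3L and GDF3 among them.

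TRIM71 and ZIC2 split the VM libraries as LIN28A did. TRIM71 was at 180 to 222 CPM in replicates 1 and 2 of VM TRAC, LHX2 and ZNF503, at 324 to 329 in replicate 3 and at 289 to 382 in VM ZNF711. ZIC2 was at 0.821 to 3.28, 8.005 to 9.45 and 12.1 to 22.3 CPM in the same order. The epithelial gene EPCAM, at 38.2 to 71.6, 123 to 170 and 96.2 to 204 CPM, and the cell cycle gene MKI67, at 79.9 to 141, 118 to 156 and 138 to 217, were also higher in these libraries by median.

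Of 16 genes of the Nodal pathway, 10 were tested, 5 were higher and 2 lower in AM. LEFTY2, a Nodal target and inhibitor, had a median of 3.79 CPM in AM and 10.1 in VM (-1.74 ± 0.28, adjusted p = 3.00e-05). FOXH1, the factor through which SMAD proteins act on Nodal targets, was at 11.7 and 18.2 (-0.81, 0.00073). LEFTY2 was at 8.21 to 26.0 CPM in the VM libraries with low AFP, at 5.51 to 7.52 in VM replicate 3 of TRAC, LHX2 and ZNF503, and at 4.70 to 11.1 in VM ZNF711. The receptors ACVR2A (0.47, 0.000181) and ACVR2B (0.22, 0.00446) were higher in AM. The ligand NODAL itself never exceeded 2.38 CPM, and its partner CFC1 was at 0 in all libraries.

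Of 16 measured genes of the LIN28 and let-7 pathway, 14 were tested, 2 were higher and 2 lower in AM, and 5 were lower with the replicate block. MIR100HG, the host of let-7a shown above, was at 66.6 to 136 CPM in AM and 29.2 to 64.4 in VM, so the ranges did not overlap (1.10 ± 0.11, adjusted p = 9.91e-09). The level of a host says nothing on its own of the mature microRNA. DIS3L2, the nuclease that degrades uridylated let-7 precursors, was higher (0.31, 0.0123). The let-7 targets HMGA1 (-0.40, 0.0095) and MYC (-1.03, 0.00553) were lower. The targets HMGA2 and IGF2BP1 did not pass, with or without the block, at medians of 122 and 473 CPM in AM and 129 and 495 in VM.

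The families of SALL4 and SOX2 did not move as one. Of 11 genes of the SALL family and the NuRD complex that it recruits, 3 were lower and 2 higher in AM. SALL1 (-1.17 ± 0.07, adjusted p = 1.57e-12) went from a median of 103 CPM in VM to 46.7 in AM without overlap, SALL3 was lower (-0.84, 0.000783), and SALL2 was higher (0.30, 0.0131). Of 12 relatives of SOX2 and POU5F1, 8 were tested. SOX3, the closest relative of SOX2 on the list, was at 0 to 1.14 CPM in AM and 2.79 to 20.4 in VM (-4.89, 2.32e-08), with a median of 12.4 CPM in the VM libraries with low AFP, 2.83 in VM replicate 3 of the other targets than ZNF711, and 6.68 in VM ZNF711. POU3F2, a neural POU factor, was at 0.776 to 3.75 CPM in AM and 0 to 0.615 in VM (3.66, 1.60e-05).

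Markers of other cell types were read beside the members, because SOX2, SALL4 and the LIN28 genes are known outside pluripotent cells. Of 8 tested neural genes, 4 were higher in AM, MAP2 (2.19) and PAX6 (1.84) among them, and 2 were lower. PAX6 was at 5.43 to 19.5 CPM in VM ZNF711, where SOX2 was at its highest VM level, and at 0 to 2.40 in the other VM libraries. Of 4 tested germ cell genes, TFAP2C (1.31) and DND1 (1.64) were higher in AM and none lower. Of 16 endoderm and liver genes, 7 were lower in AM, with SERPINA1 at -5.43, and 4 higher, with GATA6 at 1.41. Of 12 cell cycle genes, 7 were lower in AM and none higher, with a median log2 difference of -0.47. Of 12 heart muscle genes, 6 were lower and 1 higher, with a median of -0.43. Of 9 tested foregut epithelium genes, 2 were lower and 1 higher, with a median of -0.28. Among the VM libraries, PAX6 was high where SOX2 was, and the endoderm list where LIN28A was, and their part in those results was not tested. The 12 neural genes summed to 689 to 779 CPM in VM ZNF711 and 701 to 955 in VM TRAC, but NES and NCAM1 weigh heavily in that sum. Over the VM libraries NES was at 436 to 708 CPM and NCAM1 at 147 to 398. The 8 tested neural genes had a median log2 difference, ZNF711 minus TRAC in VM, of 0.36, with 1 called higher and none lower. With the replicate block the median was 0.85, with 2 called higher and none lower, beside 2.27% of all genes called.

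Genes with the most similar pattern to each member were ranked by the lower of the Pearson correlations of log2 CPM over the 12 AM and the 12 VM libraries. For LIN28A they were SDC4, PAPSS1 and LASP1 (0.89, 0.89 and 0.88), for ZFP42 CDK7, CDR2 and RPS6KA1 (0.90, 0.85 and 0.80), and for LIN28B BCAT1, SESTD1 and GNA13 (0.77, 0.76 and 0.76). For SALL4 the leading gene was SLC4A8 (0.78), for DPPA4 AGO1 (0.74) and for L1TD1 RFC3 (0.70). POU5F1, SOX2 and TDGF1 were led by ALDH1A1 (0.79), ISX (0.80) and DCAF6 (0.81) at few counts. These are descriptions without a test, on libraries that share replicate numbers and, in VM, 2 distinct sets. Ranked by Spearman correlation, none of the 3 genes first in this order for LIN28A or for TDGF1 was among the first 3.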

How the data were processed

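RNA-seq libraries of 24 samples were deposited as 1 table of read counts per gene. Reads were aligned with STAR to GRCh38, per the submitters' processing notes, and the deposited count values are whole numbers with no normalization. The counter, the annotation and the strand setting are not given in the sources used here, and the labels name polyA RNA as the molecule beside a ribosomal RNA depletion kit. From the counts, library sizes were scaled by the trimmed mean of M values (factors 0.905 to 1.08), genes were filtered by filterByExpr, and 1 mean for each of the 8 groups was fitted over all 24 libraries with edgeR 4.0.16 (glmQLFit, robust, and glmQLFTest) in R 4.3.3. The 14 comparisons were each adjusted over 17724 genes by the Benjamini-Hochberg method, with 0.05 as the threshold. DESeq2 1.42.0, other scalings, no filter, a replicate block and left-out libraries were alternatives. The fits without ZNF711, with or without replicate 3, were added after the data were seen. In all 30 same-numbered pairs of libraries in the AM against VM and target against TRAC comparisons, deviations from the group means correlated (r from 0.1248 to 0.7857 over 11428 genes), so the numbers were taken to pair the samples. The fit kept to its design without the block, and values with the replicate number as a block are given beside a result where they change a call. Symbols and exon lengths came from GENCODE 29 and sequences from RefSeq. The fit was tested on simulated data. The members and the gene lists were chosen with earlier results of these data known. Named are the members, their copies and overlapping genes, the 3 genes most like each by correlation, and of each list at most 4 called genes in each direction with the lowest adjusted p. Others (AFP, RYR2, TTN, MYH6, EPCAM, CDH1, MKI67, TBXT, NODAL, CFC1, HMGA2, IGF2BP1, KLF17 and the other genes at or near 0) were named after their values were seen. Some genes that this rule names are not reported here.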

Additional observations from a re-analysis of the deposited data

Results flagged for a closer look

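LIN28B and DPPA4 had AM minus VM differences of opposite sign between targets. For LIN28B the log2 difference was 0.64 in TRAC, 0.67 in LHX2 and 0.88 in ZNF503, with AM higher in all 3 same-numbered pairs of each, and -0.26 in ZNF711, with AM lower in all 3 pairs. For DPPA4 it was 0.42 in TRAC, 0.27 in LHX2 and 0.65 in ZNF503, again higher in all 3 pairs, and -0.24 in ZNF711, lower in all 3. The difference between ZNF711 and TRAC was tested as an interaction with edgeR's quasi-likelihood test: -0.90 ± 0.22 for LIN28B (adjusted p = 0.389) and -0.66 ± 0.33 for DPPA4 (adjusted p = 0.797), so neither passed. The differences between ZNF711 and LHX2 or ZNF503 were not tested.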

How the results depend on the processing

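Among the alternatives, 860 values kept their direction and side of the threshold, 62 lost the call, 42 gained it and 32 changed sign, most of them values near 0. TDGF1, SALL4 and LIN28B kept their mean AM minus VM calls in all alternatives. The 6107 genes called in that mean became 3880 without ZNF711 and replicate 3. Scaling to library size alone gave 3797 higher and 2496 lower genes in place of 2979 and 3128. Depth limits NANOG and, in AM, TDGF1.

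With the replicate block, AM minus VM calls rose to 3430 genes in TRAC, 2781 in LHX2, 2642 in ZNF503 and 4150 in ZNF711. In AM, the block called 201 genes for LHX2 against TRAC, 1 for ZNF503 and 7 for ZNF711. In VM it called 1 for LHX2 and 402 for ZNF711, 4 members among the latter, and 5 in the ZNF711 interaction. In LHX2, 4 members were called with the block and with DESeq2, namely SALL4, LIN28B, L1TD1 and TDGF1. With no filter 4 were called as well, with LIN28A in place of SALL4. The members whose calls the block changed were SALL4 and L1TD1 in LHX2, DPPA4 in ZNF503 and in the mean, and LIN28A, LIN28B, SALL4 and SOX2 in VM ZNF711 against TRAC.

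With no filter, 97, 16 and 99 genes were called against TRAC in AM for LHX2, ZNF503 and ZNF711, and 136, 4 and 495 in VM, 3 members among the last. The interactions gave 40, 3 and 209 genes, with 1 member. DESeq2 called 33 and 1 genes for LHX2 and ZNF503 in AM, 1, 1 and 76 in VM (1 member), and 10 in the ZNF711 interaction.

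With a library or replicate number left out, 4064 to 6270 genes and 4 to 7 members were called in the mean. Within TRAC these were 690 to 1812 genes and 1 to 3 members, within LHX2 449 to 1348 and 0 to 3, within ZNF503 531 to 1442 and 1 to 3, and within ZNF711 636 to 2125 and 0 to 4. Against TRAC in AM, LHX2 gave 0 to 1 gene and ZNF711 0 to 42. In VM, LHX2 and ZNF503 gave 0 to 1 and ZNF711 1 to 897, with 0 to 3 members. The ZNF711 interaction gave 0 to 291 genes and 0 to 1 member.

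Signs changed for LIN28A (0.033) and ZFP42 (0.21) in the mean without ZNF711 and replicate 3. ZFP42 in ZNF503 was at -0.016 by relative log expression and -0.014 by DESeq2, and L1TD1 in ZNF711 at -0.019 with the block. With libraries or a replicate number left out, the ranges that crossed 0 were -0.51 to 0.44 for LIN28A in TRAC and -0.77 to 0.15 in ZNF503, -0.16 to 0.66 for SOX2 in ZNF503 and -0.39 to 0.34 in ZNF711, -0.66 to 0.42 for L1TD1 in ZNF711, -0.56 to 0.32, -0.19 to 0.38 and -0.26 to 0.47 for ZFP42 in TRAC, LHX2 and ZNF503, and -1.29 to 0.090 for TDGF1 in VM ZNF711 against TRAC. The cause was not tested. Scaled to library size alone, AM was higher in 2 pairs for POU5F1. Ranked by Spearman, of the 3 most similar genes 1 was shared for POU5F1, LIN28B, DPPA4, SALL4 and ZFP42, and 0 for LIN28A and TDGF1.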
